A study of Rattus norvegicus with 3 samples.

Results

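Fc receptors and microglia markers were followed in the rat vestibular nuclei, the first brainstem relay of the inner ear's balance nerve, after loss of the balance organ on 1 side. The group holds 10 genes: the antibody receptors Fcgr2a, Fcgr2b and Fcgr3a, their signalling chain Fcer1g, the pattern receptor Tlr2, the oxidase subunit Cyba, and the microglia and macrophage markers Aif1, Csf1r, Lgals3 and Cd68. Every probe whose RefSeq accession belongs to 1 of these genes was taken. This gave 9 probes for 9 of the 10 genes, among 10768 named probes for 8899 genes in all. No probe was matched to Fcer1g, so it has no value here, and each of the other 9 genes rests on 1 probe that was printed on 1 spot.

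The labels describe Sprague-Dawley rats, adult and male, with a body weight of 200 to 250 g. The control group was labelled as sham-operated, although the protocol text calls the control rats normal, and it is called sham here. Both operated groups had the left labyrinth removed, and the nuclei of the same side were taken 1 day or 7 days later. Tissue of 3 rats is named for each group because a single nucleus gave too little RNA, and each group was hybridised to 1 array. There are therefore no replicate arrays, no test of conditions was possible, and each value below describes a difference between 2 arrays. The 3 arrays lay on 1 slide, at position 4 for sham, 3 for day 1 and 2 for day 7, so position and group cannot be told apart.

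The day 7 array stood apart in markers of the labelled tissue. Hoxa2, a patterning gene of the hindbrain, had a level of 0.57 in sham and 0.58 at day 1 and was not well above background at day 7, at least 69.5-fold lower than in sham. Slc6a5, the glycine transporter of hindbrain inhibitory neurons, had a level of 0.45 in sham, 0.33 at day 1 and -4.81 at day 7, a log2 fold of -5.26 at day 7 against sham. Gad1, a GABA-synthesising enzyme, was dim in sham, and at day 7 against sham it was at 3.39 by its brightest probe and 1.59 by another, while its remaining probe was not measured on both arrays. The transporters Slc17a6 and Slc32a1 were at 0.18 and -0.02 at day 7 against sham, and 0.03 and 0.09 at day 1. Apart from Gad1, each of these genes rests on 1 probe. All values at day 7 below rest on that array, no second array of day 7 was analysed here, and the part of a difference in the tissue taken was not tested.

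Microglia are the resident macrophages of the brain, and they depend on the receptor Csf1r for survival. Fc gamma receptors bind the constant part of antibodies of the IgG class. In mouse and rat, activating receptors pass the signal on through Fcer1g, the common gamma chain, and the kinase Syk, which drives phagocytosis and an oxidative burst, while Fcgr2b carries an inhibitory motif and damps the same signal. Microglia near injured axons are known to change shape and gene expression within days, and Aif1, also known as Iba1, is the antigen most often stained to see them.

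The 3 Fc gamma receptor genes and Fcer1g lie on chromosome 13. The gene names follow RefSeq, which lists Fcgr3 and fc-gamma RIII as synonyms of rat Fcgr2a, and Fcgr4 and CD16-2 as synonyms of rat Fcgr3a. The receptors are close relatives, and whether a probe also bound RNA of another one was not tested.

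RefSeq promoters of the GRCr8 assembly, which span 250 bases before to 50 bases after a start in the gene, were at hand for 6 members: Fcgr2a, Fcgr3a, Tlr2, Cyba, Csf1r and Cd68. Fcgr2b, Fcer1g, Aif1 and Lgals3 were not matched. For Fcgr3a, Cyba and Cd68 this start is the upstream end of the annotated gene. The windows of Fcgr2a, Csf1r and Tlr2 are set at a start inside the gene. The upstream ends of these genes lie at bases 85830269, 56834152 and 171504831 of their chromosomes. The 4 members whose windows hold GAGGAA are shown because GAGGAA is the core bound by PU.1, the lineage factor of macrophages and microglia. The capitals mark each GAGGAA on either strand, and the reverse complement reads TTCCTC.
Fcgr3a, chr13:85782386-85782685, strand +: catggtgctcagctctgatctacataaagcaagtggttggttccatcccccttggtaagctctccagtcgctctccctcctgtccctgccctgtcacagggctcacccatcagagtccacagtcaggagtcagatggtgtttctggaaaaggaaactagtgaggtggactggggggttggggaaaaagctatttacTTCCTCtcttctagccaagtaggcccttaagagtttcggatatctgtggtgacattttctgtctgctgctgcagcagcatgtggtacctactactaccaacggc
Fcgr2a, chr13:85828636-85828935, strand -: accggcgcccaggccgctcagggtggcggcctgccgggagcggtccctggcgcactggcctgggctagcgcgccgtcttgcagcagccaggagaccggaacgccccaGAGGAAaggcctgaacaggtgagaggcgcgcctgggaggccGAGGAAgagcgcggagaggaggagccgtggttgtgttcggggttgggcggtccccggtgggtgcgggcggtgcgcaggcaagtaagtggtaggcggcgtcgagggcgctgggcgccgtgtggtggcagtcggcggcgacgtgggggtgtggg
Csf1r, chr18:56834129-56834428, strand +: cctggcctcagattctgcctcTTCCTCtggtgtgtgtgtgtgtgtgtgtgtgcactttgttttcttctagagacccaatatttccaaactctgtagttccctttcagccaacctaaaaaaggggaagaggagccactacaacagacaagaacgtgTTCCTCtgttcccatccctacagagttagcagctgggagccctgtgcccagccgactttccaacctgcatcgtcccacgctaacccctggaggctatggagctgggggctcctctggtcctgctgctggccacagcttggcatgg
Cd68, chr10:54882392-54882691, strand -: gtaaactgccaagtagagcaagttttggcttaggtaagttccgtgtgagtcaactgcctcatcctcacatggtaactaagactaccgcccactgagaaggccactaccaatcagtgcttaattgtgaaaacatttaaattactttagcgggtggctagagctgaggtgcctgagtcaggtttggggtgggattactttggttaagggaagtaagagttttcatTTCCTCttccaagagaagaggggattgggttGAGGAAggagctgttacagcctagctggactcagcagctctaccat
Over all 27457 promoters of this length, 27.5% held GAGGAA on either strand, and the windows of Tlr2 and Cyba did not hold these letters. In Fcgr3a the copy is part of GAGGAAGT on the minus strand, which starts 56 bases before the gene's start and which 2.44% of all promoters held. None of the 6 windows held TATAAA, which 14.3% of all promoters held. A match of letters is a description and shows no binding.

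A level is given on the log2 scale, as processed intensity relative to the 75th percentile of the spots on that array that are not controls, so a level of 0 is a bright spot and each unit is a doubling. All 9 probes were well above background and none was saturated in sham and at day 7. At day 1 this held for 8, the exception being Cd68. The error given with a fold is the scanner software's own estimate for the 2 spots, which covers neither animals, dissection nor labelling. A wider measure is the disagreement between 2 probes of the same gene. Over 1139 genes with 2 measured probes, the median gap between the log2 folds of day 1 against sham was 0.34, and the 90th percentile was 1.29. A gene was counted as different at a fixed size of 2-fold, and as measured where neither array had its probe saturated or near background.

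One day after labyrinthectomy, all 8 measured members were below their sham level, and 6 of them were at least 2-fold lower: Fcgr2a, Fcgr2b, Fcgr3a, Tlr2, Cyba and Aif1. Of all 6290 genes measured, 4.37% were as much lower and 8.27% as much higher, while no member was higher. The members were proposed with these values known, so their count against that share is a description and no test. The median log2 fold of the 8 was -1.50, against 0.00 over all genes. In tissue RNA, fewer microglia and less of these RNAs per cell cannot be told apart.

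Among the antibody receptors, Fcgr3a had a level of -1.86 in sham, -3.96 at day 1 and -1.93 at day 7. The day 1 array was the low one, and sham and day 7 were nearly level. Fcgr3a, an activating receptor, was thus 4.30-fold lower at day 1 than in sham (log2 fold -2.10 ± 0.23, scanner error). Only 31 of the 6290 genes, Fcgr3a included, were as low or lower at day 1 relative to sham.

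Fcgr2b, the inhibitory receptor, had a level of -3.65 in sham, -5.34 at day 1 and -3.16 at day 7. Day 1 was again the lowest array, and day 7 was the highest. The log2 fold at day 1 against sham was -1.69 ± 0.32 (scanner error), or 3.22-fold lower. The day 1 spot was 1.19 times the lowest signal counted as well above background on that array, so the size of this fold is less certain than for brighter genes.

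Fcgr2a, the other activating receptor, had a level of -2.91 in sham, -4.53 at day 1 and -3.71 at day 7. It was 3.06-fold lower at day 1 than in sham (log2 fold -1.62 ± 0.25, scanner error). At day 7 it was the lowest of the 9 members relative to sham, at -0.80 ± 0.22.

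**Figure D1:**
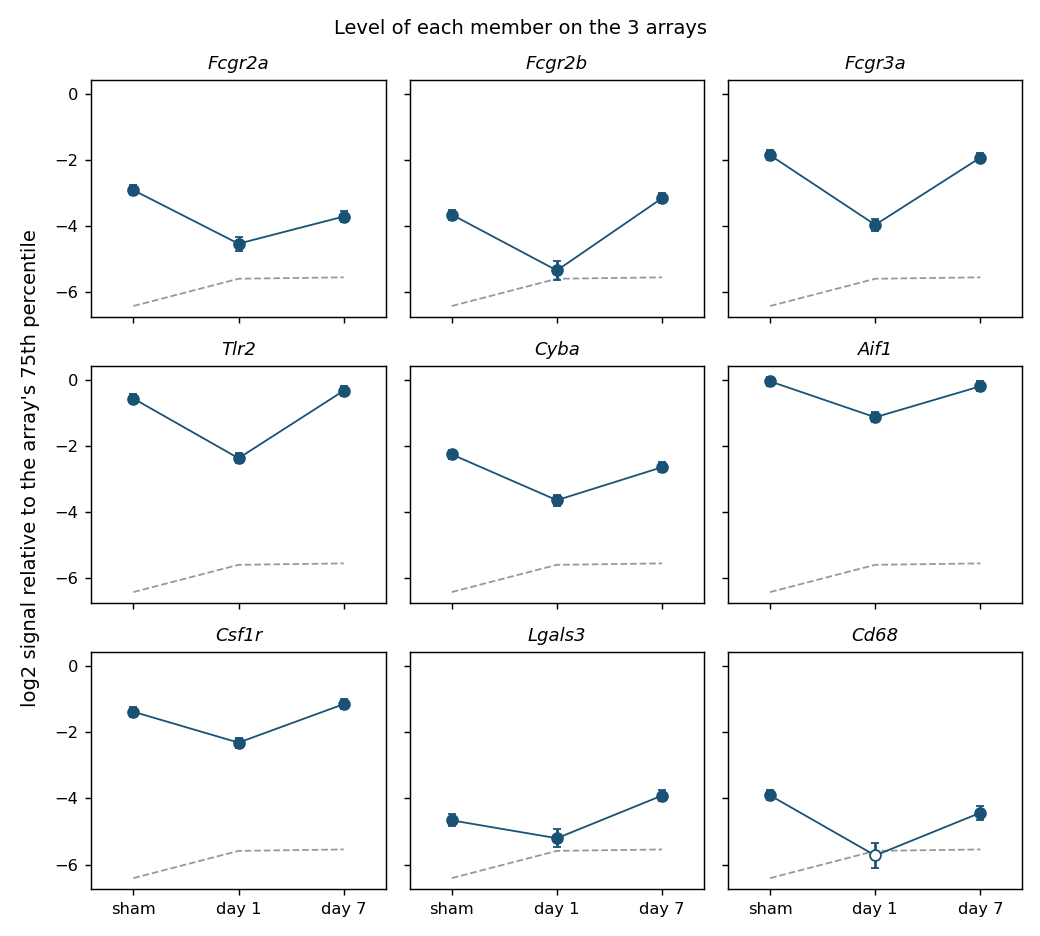
Level of the 9 members with a probe, as log2 signal relative to the array's 75th percentile, on the sham, day 1 and day 7 arrays (1 array each). Bars are the scanner software's error of the spot, the dashed line is the lowest signal well above background on each array, and the open circle is a spot not well above background. All 9 are lowest at day 1, and Cd68, Fcgr2b and Lgals3 lie near the dashed line there.

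Tlr2, which senses bacterial lipoproteins and products of damaged tissue, had a level of -0.57 in sham, -2.37 at day 1 and -0.33 at day 7. It was 3.49-fold lower at day 1 than in sham (log2 fold -1.80 ± 0.21, scanner error). Its spot at day 1 was still 9.31 times the lowest signal well above background. Cyba encodes p22-phox, the membrane subunit that phagocyte oxidase shares with its relatives. It had a level of -2.25 in sham, -3.64 at day 1 and -2.64 at day 7, and was 2.61-fold lower at day 1 than in sham.

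Aif1, the actin-binding protein Iba1, had a level of -0.05 in sham, -1.13 at day 1 and -0.20 at day 7. Its spot at day 1 was 21.9 times the lowest signal well above background, and it was 2.12-fold lower at day 1 than in sham. Csf1r had a level of -1.39 in sham, -2.32 at day 1 and -1.16 at day 7. At 1.91-fold lower at day 1 than in sham (log2 fold -0.93 ± 0.21, scanner error), it lay just inside 2-fold, as Aif1 (-1.08 ± 0.20) lay just outside it.

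Lgals3, galectin-3, a sugar-binding protein of phagocytosing macrophages, had a level of -4.67 in sham, -5.21 at day 1 and -3.92 at day 7. Its fold at day 1 against sham was the smallest of the 8, at -0.54 ± 0.33 (scanner error). It was dim on all 3 arrays, and its day 1 spot was 1.30 times the lowest signal well above background. Cd68, a lysosomal glycoprotein of macrophages, had a level of -3.91 in sham and -4.44 at day 7 and was not well above background at day 1. It was at least 3.19-fold lower at day 1 than in sham, taking the lowest signal well above background as its day 1 value.

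By day 7, no member was 2-fold different from sham in either direction. Of 6256 genes measured, 16.9% were, 11.1% higher and 5.74% lower. Among the 9 members, 4 were above sham and 5 below, with a median log2 fold of -0.07 against 0.05 over all genes. Lgals3 (0.75 ± 0.25, scanner error) and Fcgr2b (0.50 ± 0.22) were farthest above sham, and Fcgr2a (-0.80 ± 0.22) and Cd68 (-0.53 ± 0.26) farthest below. Fcgr3a (-0.07), Aif1 (-0.15), Csf1r (0.23), Tlr2 (0.24) and Cyba (-0.39) differed from sham by less than 0.40, the median disagreement between 2 probes of a gene in this comparison. The 3 antibody receptors were spread over both sides of sham at day 7, although each was at least 3-fold lower at day 1.

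Between the days, all 8 measured members were higher at day 7 than at day 1, and 5 of them at least 2-fold: Fcgr2b, Tlr2, Fcgr3a, Lgals3 and Csf1r. Of all 6139 genes measured, 6.56% were as much higher and 5.33% as much lower. Fcgr2b was 4.54-fold higher at day 7 than at day 1 (log2 fold 2.18 ± 0.32, scanner error), Tlr2 was 4.11-fold higher and Fcgr3a 4.08-fold. Cyba was at 1.00 (1.99-fold), Aif1 at 0.94 and Fcgr2a at 0.82 on the log2 scale, just inside 2-fold. Cd68 was at least 2.22-fold higher at day 7 than at day 1. The comparisons of day 1 with sham and of day 7 with day 1 share the day 1 array, so the same 1 array is the low one in both.

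**Figure D2:**
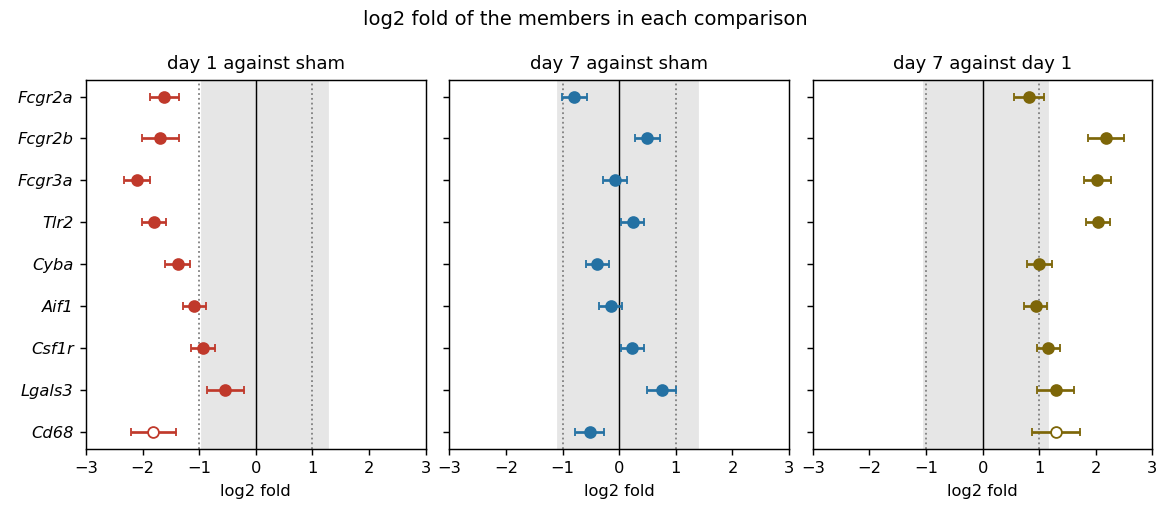
log2 fold of each member at day 1 against sham, day 7 against sham and day 7 against day 1, with the scanner software's error of both spots as bars. The grey band holds the 5th to 95th percentile of all genes measured, dotted lines mark 2-fold, and open circles mark Cd68 where 1 spot was not well above background. At day 1 against sham 6 measured members lie left of the dotted line, and at day 7 against sham none lies outside the dotted lines.

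The folds of day 1 and of day 7 against sham, which share the sham array, were set side by side for the 6047 genes measured in all 3 comparisons. At least 2-fold lower at day 1 and within 2-fold of sham at day 7 were 149 of these genes, or 2.46%, and they include 6 of the 8 measured members. Counted without regard to the distance from sham at day 7, 87 genes were at least 2-fold lower at day 1 than in sham and at least 2-fold higher at day 7 than at day 1, of which 3 were members: Fcgr2b, Fcgr3a and Tlr2. Likeness to the antibody receptors was measured as the distance of a gene's 2 log2 folds from the mean of Fcgr2a, Fcgr2b and Fcgr3a, which was -1.80 at day 1 and -0.13 at day 7. The nearest genes outside the group were Entpd1 (-1.90 and -0.21), Neurl3 (-1.69 and -0.02), Slc4a10 (-1.66 and -0.08), Dnph1 (-1.78 and 0.05) and Ifit2 (-1.86 and 0.04), each with the fold of day 1 first and that of day 7 next. With only 3 arrays, such a likeness rests on 2 folds per gene. The receptors themselves ranked 10 (Fcgr3a), 52 (Fcgr2b) and 60 (Fcgr2a) in nearness to this mean, since Fcgr2b and Fcgr2a lay on opposite sides of sham at day 7. Entpd1 encodes CD39, an enzyme that breaks down extracellular ATP, and Ifit2 is induced by interferon.

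**Figure D3:**
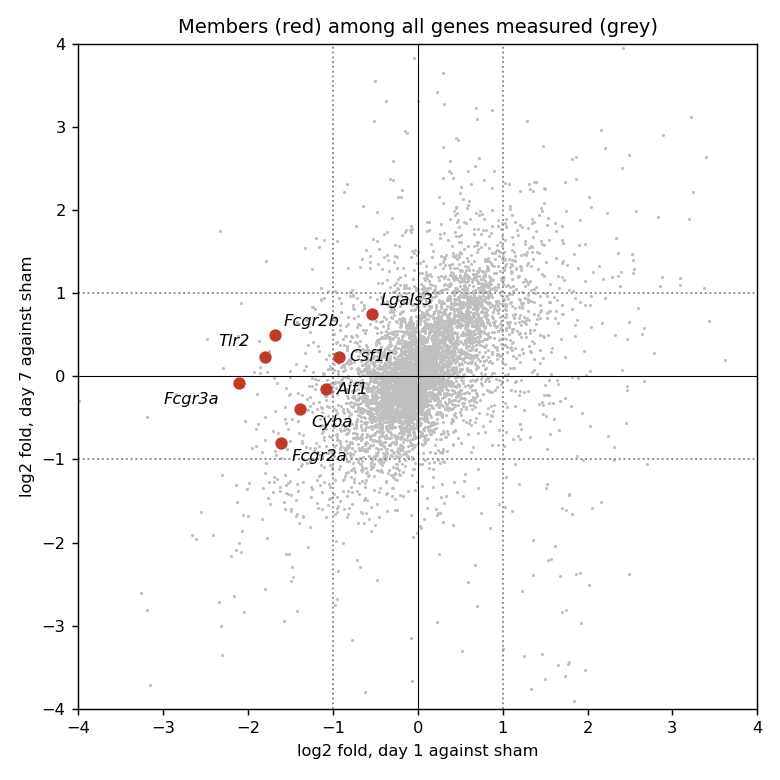
log2 fold at day 1 against sham (horizontal) and at day 7 against sham (vertical) for the 6047 genes measured on all 3 arrays (grey, 18 of them outside the plotted range of 4 in either direction) and for the 8 members measured at both days (red). Dotted lines mark 2-fold, and the 2 axes share the sham array. The members lie between -2.10 and -0.54 at day 1 and between -0.80 and 0.75 at day 7.

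Other genes of the same pathways were mostly within 2-fold of sham at day 1. Of 24 other microglia markers, 12 had a probe with no outlier flag and 7 were measured, and P2ry12 had a flagged probe alone. Of these 1 was lower, none higher and 6 neither, with a median log2 fold of -0.20. The lower one was Tgfbr1, a receptor of transforming growth factor beta, at -1.12 by its brightest probe, while its other probes gave -0.46 and 0.71. Ctss, Laptm5 and Spi1, which encode a lysosomal protease, a lysosomal membrane protein and PU.1 and were chosen after their values were seen, were at -0.20, 0.22 and 0.01 at day 1 against sham. Another probe of Ctss gave 0.83. All 3 were thus within 2-fold of sham at day 1.

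Some of the other microglia markers gave only a bound at day 1 against sham. Of those, 3 were well above background in sham but not at day 1, and 1 was so at day 1 but not in sham. Cx3cr1, the fractalkine receptor, was not well above background in sham and was at least 3.78-fold higher at day 1 and at least 3.05-fold higher at day 7 than in sham. Itgam, the CD11b integrin chain, was well above background in sham alone, at least 1.26-fold lower at day 1 and 1.22-fold lower at day 7 than in sham. Hpgds and Mertk were named after their values were seen. Hpgds was at least 1.48-fold lower at day 1 than in sham and at least 2.29-fold higher at day 7 than at day 1. At day 7 against sham Hpgds was measured, at 0.63. Mertk was well above background in sham alone and too dim there to give a useful bound. The spot of P2ry12, an ATP receptor of resting microglia, carried an outlier flag on the day 1 array, and at day 7 against sham it was at 0.13. No probe was matched to Ptprc or Il34.

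Genes that act downstream of the antibody receptors were, like most genes measured, within 2-fold of sham at day 1. Of 20 genes of Fc receptor and DAP12 signalling, 10 were measured at day 1, of which 1 was higher, none lower and 9 neither, with a median of 0.07. Syk, the kinase recruited by the activating receptors, was at 1.46 at day 1 and 1.59 at day 7 against sham, from a dim sham level of -5.79. Tyrobp, the adaptor DAP12 of microglia, had a level of 0.08 in sham, 0.50 at day 1 and 1.08 at day 7, which is 0.42 and 1.01 against sham at day 1 and day 7. At day 7 against sham, 3 of 11 were higher and none lower, with Syk, Lcp2 (1.43) and Tyrobp past 2-fold. At day 7 against day 1, 2 of 10 were higher, among them the adaptor Lcp2 (1.83), and the median was 0.45.

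Of 14 other Fc receptors, 5 had a probe and 2 were measured. Fcer2, the low-affinity IgE receptor CD23, was at 1.00 at day 1 and 1.40 at day 7 against sham, and Fcgrt, the neonatal Fc receptor that recycles IgG, was at -0.63 and -0.41 and was chosen after its values were seen. Of 5 partners of Cyba in the phagocyte oxidase, 3 were measured and none was past 2-fold at day 1 against sham (median -0.07). Cybb, the catalytic subunit that Cyba stabilises, was at -0.07 at day 1 and -1.19 at day 7 against sham. The order of Cyba was the opposite, lower at day 1 (-1.38) than at day 7 (-0.39).

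Of 22 Toll-like receptors and adaptors, 4 were measured and none was past 2-fold at day 1 against sham (median 0.30). At day 7 against sham, Tlr6, which pairs with Tlr2 at the cell surface, was at 1.21 and Tlr9 at 1.20. Tlr2 was thus the only measured Toll-like receptor that was 2-fold lower at day 1, while Tlr4 had a bound alone (at least 1.87-fold lower). Of 9 ligands and regulators of Csf1r, 3 were measured, with a median of -0.56 at day 1 against sham and none past 2-fold. Csf1, its ligand, was at -0.56 at day 1 and -0.60 at day 7 against sham. At day 7 Runx1, a factor of blood and microglia lineages, was at 1.19 against sham, from a dim sham level of -5.86. Maf was at 1.51 at day 7 against day 1.

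Of 27 genes of activated microglia and phagocytes, 15 were measured and none was past 2-fold at day 1 against sham (median 0.26). Relative to sham, 3 of the 15 were higher and 1 lower at day 7, with the chemokine Ccl3 at 1.67, the cytokine Il1b at 1.22, the mitochondrial protein Tspo at 1.17 and the phosphoprotein Spp1 at -1.67 (median 0.06). Il1b was read from the brighter of its 2 probes, and the other gave 1.35 at day 1 and 0.93 at day 7 against sham. At day 7 against day 1 also 3 were higher and 1 lower, Ccl3 (1.41), Tspo (1.40), Gpnmb (1.16) and Spp1 (-1.60), with a median of -0.01. Of 20 galectins and scavenger receptors, 13 were measured. Colec12 (2.89) and Lgals2 (1.30) were higher at day 1 than in sham, and Lgals7 (-1.80) was lower. Colec12 and Lgals2 were dim in sham, at -5.50 and -5.79, and Lgals7 was dim at day 1, at -5.36. The genes past 2-fold at day 7 against sham were Colec12 (2.90), Lgals9 (1.15), Lgals2 (1.13) and Lgals1 (-1.15). Colec12 was read from 1 of its 2 probes, since the other was not well above background on any array. The medians were -0.17 at both days against sham and -0.02 at day 7 against day 1, where Lgals7 (1.04) alone was past 2-fold.

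**Figure D4:**
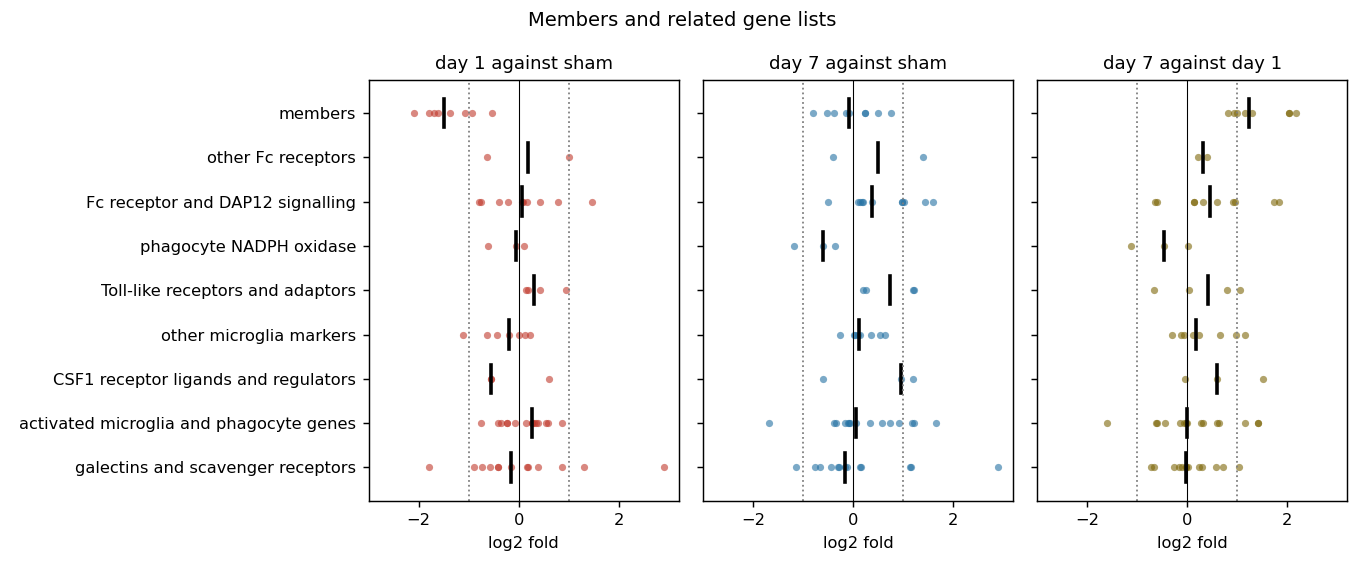
log2 fold of the measured genes of each list (points) and their median (black bar) at day 1 against sham, day 7 against sham and day 7 against day 1, with dotted lines at 2-fold. At day 1 against sham the members have a median of -1.50, and the 8 other lists have medians between -0.56 and 0.30.

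Markers of other cells were read beside these values. In units of each array's 75th percentile, the signals of the 9 members summed to 2.83 in sham, 1.11 at day 1 and 2.84 at day 7. Oligodendrocyte, neuron and astrocyte markers were well above background on every array, 6 of 6, 9 of 9 and 7 of 7 of those with a probe. Their median log2 folds at day 1 against sham were -0.16, -0.23 and 0.02, and at day 7 -0.29, -0.38 and 0.52. Past 2-fold of sham among these 3 lists was the astrocyte gene S100b on both days, at 3.19 at day 1 and 1.89 at day 7 relative to sham. The others were so only at day 7: the neurofilaments Nefh (-2.30), Nefl (-1.61) and Nefm (-1.17), the myelin gene Mbp (-1.29) and the astrocyte water channel Aqp4 (1.25). Mbp was read from the brighter of its probes, and another gave -0.997 at day 7 against sham, just inside 2-fold. Of the 6 vestibular and hindbrain markers with a probe, 6, 5 and 5 were well above background in sham, at day 1 and at day 7.

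Of 9 neutrophil and monocyte markers with a probe, 4 were well above background in sham, 4 at day 1 and 6 at day 7, and their summed signal was 0.58, 0.86 and 1.11. At day 7 S100a8, a calprotectin subunit of neutrophils, was at 1.24 and Ccr2, the chemokine receptor of blood monocytes, at 1.21 against sham. Of 12 T and NK cell markers 9, 5 and 7 were well above background in sham, at day 1 and at day 7, with a summed signal of 1.24, 2.15 and 1.48. Nkg7 had a level of -1.37 in sham, 0.23 at day 1 and -1.89 at day 7, and it weighs most in the sum at day 1. Among the measured ones, Nkg7 (1.60) and Cd8a (1.25) were past 2-fold of sham at day 1, and Cd5 (2.68) at day 7. Cd5 had a sham level of -6.08, near the lowest level well above background on that array (-6.41), so the size of its fold is uncertain. Border macrophage markers had 2 probes (summed signal 0.12, 0.08 and 0.07 in sham, at day 1 and at day 7), B cells 2 (0.47, 0.66 and 0.51), mast cells 5 (14.3, 19.1 and 17.4), red blood cells 3 (5.53, 6.99 and 6.39) and endothelium 6 (6.59, 7.57 and 7.95). The mast cell sum includes Tpsab1, which was saturated on all 3 arrays. Tpsb2, a mast cell tryptase, was at 2.08 at day 1 against sham and was not well above background at day 7, at least 34.9-fold lower than at day 1. The part of these cells in the values of the members was not tested.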

How the data were processed

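Whole-tissue RNA of the vestibular nuclei was labelled with Cy3 and read on 3 Agilent rat arrays in 1 colour. The deposited scanner files give, per the file headers, a processed intensity per spot from Agilent Feature Extraction 10.7.3.1, background-subtracted and not scaled between arrays. They also hold flags per spot. The series table the authors deposited holds this intensity, by its values, for 34687 probes and was used as an alternative. Spots marked as outliers (163 in sham, 224 at day 1, 193 at day 7) were left out, log2 was taken, the array's 75th percentile (5692, 5242 and 5676) was subtracted, and replicate spots were averaged per probe. Of 43379 spots, 81.3%, 77.3% and 76.9% were well above background in sham, at day 1 and at day 7. The number of arrays limits the precision.

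Probes were named through RefSeq accessions of the GRCr8 table, which matched 10768 of 41012 probes. For genes with several probes, the one of highest mean signal was used. Members and lists were chosen with earlier results of these data known. All members were named, from each list those past 2-fold (at most 3 per direction) and 8 preset genes, and the 5 genes nearest in pattern. The lists were other Fc receptors, Fc receptor and DAP12 signalling, phagocyte oxidase, Toll-like receptors, other microglia markers, Csf1r ligands and regulators, activated microglia and phagocyte genes, galectins and scavenger receptors, and markers of other cells. The normexp alternative used the spots' median signal, where the mean had been planned. Values of some listed genes are not reported here. The steps were tested on simulated data. Python 3.11.15, R 4.3.3 and limma 3.58.1 were used.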

Additional observations from a re-analysis of the deposited data

Results flagged for a closer look

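All 8 measured members lay below sham at day 1, and 4 of them lay above sham at day 7. The share of all genes that lay so was not counted, so the number of members is a description only. The difference between the days, day 7 minus day 1 on the log2 scale, was 2.18 for Fcgr2b, 2.04 for Tlr2, 1.16 for Csf1r and 1.29 for Lgals3. Each group has 1 array and both days share the sham array, so this difference was not tested. The median disagreement between 2 probes of a gene was 0.34 at day 1 and 0.40 at day 7 against sham. In the main processing, both folds of Fcgr2b (-1.69 at day 1 and 0.50 at day 7) and Lgals3 (-0.54 and 0.75) exceeded it. At day 7 Fcgr2b was below it when scaled by the median (0.37), with quantile normalization (0.33) and with loess normalization (0.31). At day 1 Lgals3 (-0.20) was smaller in size than it under normexp. For Tlr2 and Csf1r the folds at day 7 (0.24 and 0.23) were smaller than it in the main processing.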

How the results depend on the processing

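The values were recomputed under 9 alternatives: scaling by the median, quantile normalization, cyclic loess, normexp background correction (on the spots' median signal), the authors' unscaled series table, no filter on dim probes, brighter probes only, the mean of all probes of a gene, and outlier spots kept. The members at least 2-fold lower at day 1 numbered 6 or 7 under 8 of them, and those at least 2-fold higher at day 7 than at day 1 numbered 4 to 7. With brighter probes only, which left Tlr2, Aif1 and Csf1r, both counts were 2, the median was -1.08 at day 1 against sham, and the median at day 7 against sham was 0.23, the other side of 0 from -0.07, because fewer genes were left. No member was 2-fold past sham at day 7 under any of the 9. No fold of a single member past 2-fold changed sign. Aif1 fell inside 2-fold at day 1 under normexp (-0.90), and Csf1r was past it under 3 alternatives (lowest -1.05). Of 59 folds past 2-fold among listed genes that are no members, 41 stayed past it under every alternative in which they were measured, and none changed sign. At day 7 against sham Lgals9, Lgals2 and Runx1 stayed past it under 5 of 8 alternatives (lowest 0.87, 0.83 and 0.85), and Fcer2 at day 1 under 3 of 8 (lowest 0.82). Cyba and Aif1 were each past 2-fold at day 7 against day 1 under 1 alternative, and Lgals3 was inside it under normexp (0.81). Under normexp Fcgr2b was at -1.20 (day 1 against sham) and 1.63 (day 7 against day 1). Unscaled values moved the all-gene median to -0.12 (day 1 against sham) and 0.15 (day 7 against day 1). Higher genes made up 65.4% of all genes past 2-fold at day 1 against sham, and 53.7% unscaled, 55.4% scaled by the median and 56.2% with quantile or loess normalization. At day 7 against sham they made up 66.0%, and 54.2% scaled by the median, 55.2% with loess, 56.3% with quantile normalization and 50.4% with brighter probes only. They made up 55.2% at day 7 against day 1, 65.9% unscaled and 47.8% with brighter probes only, where lower genes were the more numerous. The share of all genes at least 2-fold lower at day 1 lay between 3.18% and 7.28%. Cd68, Fcgr2b and Lgals3 at day 1 are limited by signal over background. No paired analysis was possible because each group has 1 array, and for the same reason no replicate could be left out.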
